A study of Homo sapiens with 17 samples.

Results

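RNA polymerase positions found in both replicates of a run-on without sarkosyl were described in HEK293, an established human cell line of embryonic kidney origin. A site is a strand and a position, and a site was kept when both sarkosyl-free tables listed it. This gave 13905 reproducible sites, out of 93953 distinct sites in the sarkosyl-free tables and 158141 in all 4 tables of the study. They were 21.04% of the 66089 sites of replicate 1 and 33.3% of the 41769 sites of replicate 2.

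The study used time-variant precision run-on sequencing, in which engaged polymerases of permeabilised cells add labelled nucleotides for a chosen time, so that the fill-in of label over time gives a release rate for each position. In the group described here the run-on lasted 0.5, 2, 8 or 32 min in a buffer lacking the detergent sarkosyl, in 2 replicates of each time, and all of these libraries came from HEK293 cells grown in the same medium. Each replicate is 1 table, which the authors fitted over the 4 run-on times, as inferred from the table names. The submitters call the main experiment's replicates biological duplicates, but nothing in the labels ties the sarkosyl-free series to separate cultures. The p-values therefore rest only on the spread between these 2 tables, pooled over all genes of a test.

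Polymerase II initiates, transcribes a short stretch and then commonly halts downstream of the start, where the factors NELF and DSIF hold it until the kinase P-TEFb releases it into the gene body. Polymerases also dwell at splice sites, past the cleavage and polyadenylation site, and on particular DNA sequences. Sarkosyl is a detergent that removes many chromatin proteins but not polymerases engaged on the template, and a run-on without it leaves more of those proteins in place.

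A value is the deposited pausing time, the reciprocal of the fitted release rate. Its unit is not stated, so a larger number means only a longer stay. Because the replicates differ in scale, each site also has a percentile of pausing time within its own table, from 0 (shortest) to 100 (longest) over all rows of that table. Class and gene differences below are in points of that percentile. Distances after a start count from the nearest upstream start of any annotated transcript of a protein-coding or long non-coding gene, same strand. That start need not be the one in use.

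The sites with the longest and the shortest mean percentile show what a site is, and their sequences are given first because base composition recurs in the results. Each sequence is 30 bases of a GENCODE release 29 transcript on the sense strand of GRCh38, 5′ to 3′, and the capital marks the base at the site. Of the sites within 300 bp after a start of a protein-coding gene, the longest lay in HIST2H2AA3 (a replication-dependent histone H2A gene, chr1:149842660-149842689, minus strand, coding sequence), RACK1 (a ribosome-associated scaffold protein, chr5:181243863-181243892, minus strand, 5′ UTR) and TFAM (the mitochondrial transcription factor, chr10:58385436-58385465, plus strand, 5′ UTR). The shortest lay in the 5′ UTRs of SUSD6 (chr14:69611637-69611666, plus strand), ZKSCAN1 (a zinc finger gene, chr7:100015625-100015654, plus strand) and BCL6 (a transcriptional repressor, chr3:187745420-187745449, minus strand). Of the sites in coding gene bodies, exonic sequence was at hand for 2 of the longest, both in 3′ UTRs, in ZNF234 (a zinc finger gene, chr19:44158826-44158855, plus strand) and RPL37 (a ribosomal protein, chr5:40827544-40827573, minus strand). It was also at hand for 1 of the shortest, in the 3′ UTR of TPT1 (translationally controlled tumour protein, chr13:45336294-45336323, minus strand).
HIST2H2AA3, long: cgtggcaagcaaggaGgcaaggcccgcgcc
RACK1, long: aaggcggcggcaggaGaggttgtggtgcta
TFAM, long: ataacacacgccggaGggtcgcacgcgggt
SUSD6, short: ttctccgaagccggcGaccgccccacctcc
ZKSCAN1, short: gggagggcctaagtcCgtgtgcggtgccct
BCL6, short: gtggtgatgcaagaaGtttctaggaaaggc
ZNF234, long: taagctccatgggggCaggaactttgctac
RPL37, long: ctttatacggtgggaGtataccctggtgcc
TPT1, short: gaatacaggaggaaaAaaagcgggaagagt

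The HIST2H2AA3 site lay 62 bp after a start and had a pausing time of 31.3 in replicate 1 and 143 in replicate 2. This gene has a near-identical copy, HIST2H2AA4, so the site's reads may come from either. The RACK1 site, 3 bp after a start, had times of 32.3 and 125. TFAM, 17 bp after a start, had 37.0 and 100. All 3 had percentiles between 99.0 and 99.7 and were longer in replicate 2.

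At the other end, the SUSD6 site had times of 0.176 and 0.180. ZKSCAN1 had 0.197 in both replicates, and BCL6 had 0.165 and 0.229. These 3 sites lay 14, 41 and 3 bp after a start, so the longest and the shortest stays were found at like distances from an annotated start. The exon sequences printed for RACK1, SUSD6 and BCL6 begin upstream of that start. Other annotated transcripts therefore start further upstream of these sites, and which start was used is not known.

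In gene bodies the longest stays were at an intronic site of WBP11 (a splicing factor, chromosome 12, position 14798404, minus strand), with times of 66.7 and 111, at the ZNF234 site, with 35.7 and 143, and at the RPL37 site, with 41.7 and 100. The shortest were at the intronic site of CROCC at position 16860256 of chromosome 1 (plus strand), with 0.154 and 0.164, and at the intronic site of KCTD2 at position 75035144 of chromosome 17 (plus strand), with 0.183 and 0.174. The TPT1 site, at position 45336308, had 0.205 and 0.160. It lies beside the annotated small nucleolar RNA gene RF00322 (positions 45336314 to 45336447), so it may not be transcription of TPT1 itself. Members with such extreme values were picked by those values, and they carry no test.

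Over all 13905 sites the median pausing time was 2.60 in replicate 1 and 4.98 in replicate 2. The middle of the distribution, between the quartiles, ran from 0.902 to 6.62 in replicate 1 and from 1.10 to 14.3 in replicate 2, and the extremes were 0.148 to 200 and 0.128 to 1000. Replicate 2 was therefore the longer and wider table. The sites that the other replicate lacked had medians of 2.13 and 9.62, so reproducible sites were somewhat longer than the rest in replicate 1 and shorter in replicate 2. On the percentile scale the reproducible sites had a median of 53.4 in replicate 1 and 39.0 in replicate 2.

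Order was shared only in part. Spearman's rho of pausing time between the replicates was 0.475 over the 13905 sites, which share libraries and are not independent. A site's percentile differed by a median of 20.8 points between the tables. That figure includes the offset between the medians of the reproducible sites, 53.4 and 39.0, so it is not all a change of order. The sites were also cut into 5 equal parts by pausing time within each replicate. Of the 2773 sites in the longest part of replicate 1, 46.2% were in the longest part of replicate 2 and 3.57% in its shortest. Of the 2779 in the shortest part of replicate 1, 37.6% were in the shortest part of replicate 2 and 7.20% in its longest. The authors' own uncertainty was wide, since the deposited SD of a site's rate was a median of 1.80 times its mean in replicate 1 and 1.29 times in replicate 2.

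Sites also came in groups. Of all reproducible sites, 3014, or 21.7%, had another within 50 bp on the same strand, and the longest run held 8. Sites 1 to 5 bp apart differed by a median of 14.7 percentile points in replicate 1 and 13.6 in replicate 2 (287 pairs). Over 200 and up to 1000 bp apart the medians were 23.8 and 24.03 (1743 pairs). Positions 1 to 5 bp apart were thus more alike in pausing time than positions further apart, in both replicates. At 6 to 20 bp the medians were already 21.2 and 20.4 (864 pairs), and at 51 to 200 bp they were 20.75 and 24.5 (1077 pairs). Beyond 5 bp there was therefore no steady change with distance in both replicates.

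The classes of GENCODE release 29 on the same strand differed in their stays. Coding gene bodies were positions inside a protein-coding gene and more than 300 bp after the nearest upstream start. They held 4296 reproducible sites and had the longer stays, and positions close to a start had shorter ones. Sites 0 to 60 bp after a start (n = 1943) had median times of 2.19 and 4.63. Coding introns (n = 2803) had 3.42 and 7.75, and coding exons away from splice sites (n = 1369) had 4.10 and 7.19. Both replicates placed the first of these below the other classes.

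**Figure D1:**
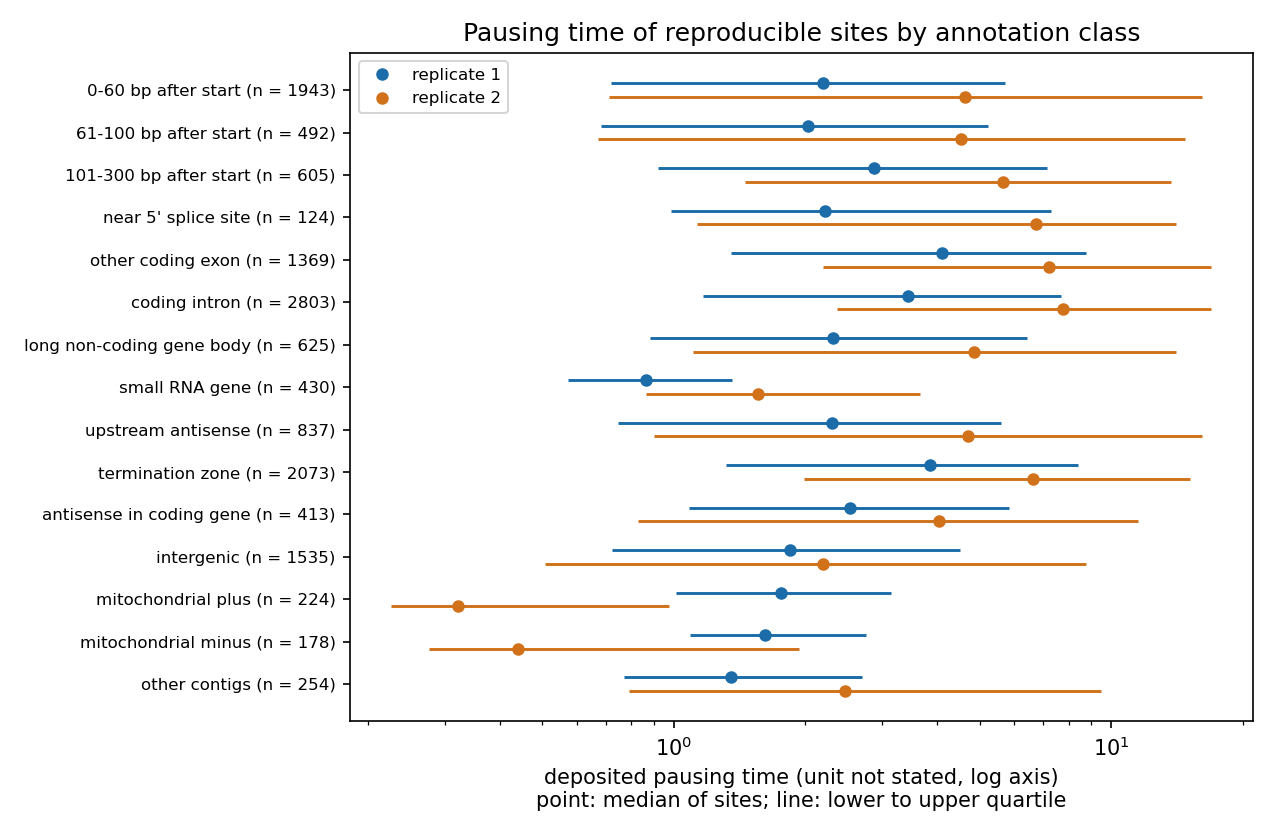
Deposited pausing time (log axis, unit not stated) of the reproducible sites in 15 exclusive annotation classes, with the number of sites in brackets; points are medians, lines run from the lower to the upper quartile, and the colours are the 2 replicates. Small RNA genes have medians of 0.862 and 1.56, below every other nuclear class, and the mitochondrial classes fall far lower in replicate 2 than in replicate 1.

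The difference of median percentile between sites 0 to 60 bp after a start and coding gene bodies was -11.4 points in replicate 1 and -11.1 in replicate 2, a mean of -11.2 ± 0.177 (SD, n = 2). At 61 to 100 bp (n = 492, median times 2.02 and 4.54) it was -12.3 ± 1.12, and beyond 100 and up to 300 bp (n = 605, median times 2.87 and 5.65) it was -6.15 ± 1.28. These differences exceeded the spread between replicates. Set against coding exons at like G and C content, however, sites 0 to 60 bp after a start were higher in replicate 2, as given with the sequences below. With 2 replicates the smallest two-sided p that an exact sign-flip test can give is 0.5, so no class difference carries a p.

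Within the first 300 bp the percentile varied with distance. The lowest medians in both tables were at 61 to 80 bp (n = 329), with percentiles of 46.8 and 34.1, and the bin at 41 to 60 bp (n = 547) stood higher, at 53.3 and 42.3. The bin above 150 and up to 200 bp (n = 138) had 58.9 and 39.2, the highest of these bins in replicate 1 but not in replicate 2. Further into coding genes the percentile was 58.7 and 41.3 up to 1000 bp (n = 614) and 63.8 and 48.6 from there to 5000 bp (n = 1693). Beyond 20000 bp (n = 505) it was 55.8 and 48.2, which in replicate 1 is lower than between 1000 and 5000 bp and in replicate 2 about level with it.

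Exons and introns gave no order that both replicates shared, while sites near a 5′ splice site had the lowest median percentile of these classes in both. Coding exons away from splice sites stood 4.40 points above introns in replicate 1 and 1.98 points below them in replicate 2 (differences of 4.40 and -1.98). Sites within 50 bp of the last base of a non-final exon, next to the 5′ splice site, numbered 124 and had median times of 2.22 and 6.72. Their median percentile was below that of introns by 10.1 points in replicate 1 (-10.1) and by 3.64 in replicate 2 (-3.64), a mean of -6.86 ± 4.56 (SD, n = 2). Against other coding exons the differences were -14.5 and -1.66, a mean of -8.07 ± 9.07 (SD, n = 2), so their size was not shared. Just upstream, in the last 20 bases of the exon, the 25 sites had percentiles of 41.5 and 47.3, and the 25 sites in the first 20 bases of the intron had 65.5 and 40.7, so the replicates reversed this order.

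Past the ends of coding genes stays were longest in the first bin of distance and shortest in the last, in both replicates. In the zone up to 10000 bp past a coding gene's end, where polymerases run on after cleavage of the transcript, 2073 sites had median times of 3.86 and 6.62. In the first 500 bp (n = 327) the median times were 4.42 and 7.46, and the percentiles 66.3 and 48.2. Between 5000 and 10000 bp (n = 176) the times were 2.95 and 4.70, and the percentiles 56.4 and 37.8. The steps between were not all downwards, since the percentiles were 62.9 and 43.8 between 1000 and 2000 bp (n = 562) and 63.0 and 44.5 between 2000 and 5000 bp (n = 652). Against coding gene bodies the zone as a whole differed by 2.02 points in replicate 1 and -3.29 in replicate 2, so its direction was not shared.

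Long non-coding genes and antisense transcription had shorter stays than coding gene bodies in both replicates. Bodies of long non-coding genes (n = 625) had median times of 2.31 and 4.85 and stood -10.2 ± 0.0879 points (SD, n = 2) from coding bodies. Upstream antisense sites, which lie within 1000 bp upstream of a start and on the opposite strand, as divergent transcripts do, had 2.30 and 4.72 (n = 837) and stood at -10.5 ± 0.326. These values lie close to those of sites 0 to 60 bp after a start. Antisense sites within coding genes (n = 413) had 2.53 and 4.03 and stood at -11.1 ± 4.02.

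Intergenic sites (n = 1535) had median times of 1.85 and 2.19 and differed from coding bodies by -15.1 and -23.7 points. Of these, 127 lay over nuclear pseudogenes of mitochondrial genes, where reads from the mitochondrial genome could align as well, and had times of 2.03 and 0.334. The other 1408 had 1.78 and 2.82, and without the 127 the difference from coding bodies was -15.9 and -20.1 points. The intergenic class was below coding bodies with or without them.

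Small RNA genes had the shortest deposited pausing times of the nuclear classes on the chromosomes. Their base profile, given below, differed from that at starts, exons, upstream antisense sites and long non-coding bodies. Whether these sites mark engaged polymerases in the same way as the other classes was not tested. Their 430 sites had median times of 0.862 in replicate 1 and 1.56 in replicate 2, with percentiles of 30.7 and 20.6, and differed from coding bodies by -29.2 ± 1.61 points (SD, n = 2). Small nucleolar RNA genes, whose products guide modification of ribosomal RNA, held 217 of these sites, in 189 genes, and had times of 0.831 and 1.39. MicroRNA genes held 83 sites, with 0.963 and 1.98, and small nuclear RNA genes held 51, with 0.894 and 3.61.

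Single small RNA genes rarely held more than a few sites. SNORD3A, a copy of the U3 small nucleolar RNA that processes ribosomal RNA precursors, held 5 sites with median times of 3.53 and 1.41, and SNORD3C held 5 with 1.10 and 1.37. The U3 copies are near-identical, so sites may be split between them.

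The mitochondrial genome, transcribed by its own polymerase, was where the replicates parted most, by a median of 33.6 points per plus-strand site and 31.5 points per minus-strand site. Both figures include the offset between the tables given above. Sites on its plus strand (n = 224) had median times of 1.75 in replicate 1 and 0.321 in replicate 2, and those on its minus strand (n = 178) had 1.61 and 0.440. Percentiles were 44.8 and 4.84 on the plus strand and 43.1 and 7.97 on the minus strand. The direction against coding bodies was shared, at -16.2 and -43.8 points on the plus strand, but the size was not, with a mean of -30.0 ± 19.5 (SD, n = 2). Contigs outside the main chromosomes (n = 254) had times of 1.35 and 2.46 and differed by -21.7 ± 0.458 points.

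The share of sites that recurred also differed by class, which bears on what the reproducible set holds. In small RNA genes 58.7% of the sites of replicate 1 and 73.8% of those of replicate 2 recurred in the other table. For sites 0 to 60 bp after a start the shares were 30.9% and 51.9%. In coding introns they were 12.8% and 22.4%, the lowest among the classes together with sites near a 5′ splice site, at 12.7% and 22.3%. Introns were therefore 33.1% of all sites of replicate 1 and 29.9% of replicate 2, but 20.2% of the reproducible sites. Rank agreement within classes ran from a rho of 0.284 near 5′ splice sites to 0.545 at 61 to 100 bp after a start.

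Sequence was available for 5190 nuclear and 188 mitochondrial reproducible sites, as 30-base windows from GENCODE transcripts or RefSeq promoter windows on GRCh38. These are 37.3% of the reproducible sites for the nuclear part, and they come mostly from exons and starts, since introns and intergenic positions are covered by few of these sequences. At 702 sites both sources held the window, and the letters were identical at all of them.

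The base at a nuclear site was G at 62.1% and C at 32.6% of sites, and A or T at 2.06% and 3.24%. The next base downstream was T at 47.2% of sites. Downstream of that G stood at 46.5%, G also stood 3 bases upstream of the site at 50.2%, and T was rare directly before it, at 7.07%. In windows moved 100 bp downstream the base at the centre was A at 21.7%, C at 28.0%, G at 27.6% and T at 22.7%. Plus-strand and minus-strand sites had the same profile, with G at 62.9% and 61.3%.

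**Figure D2:**
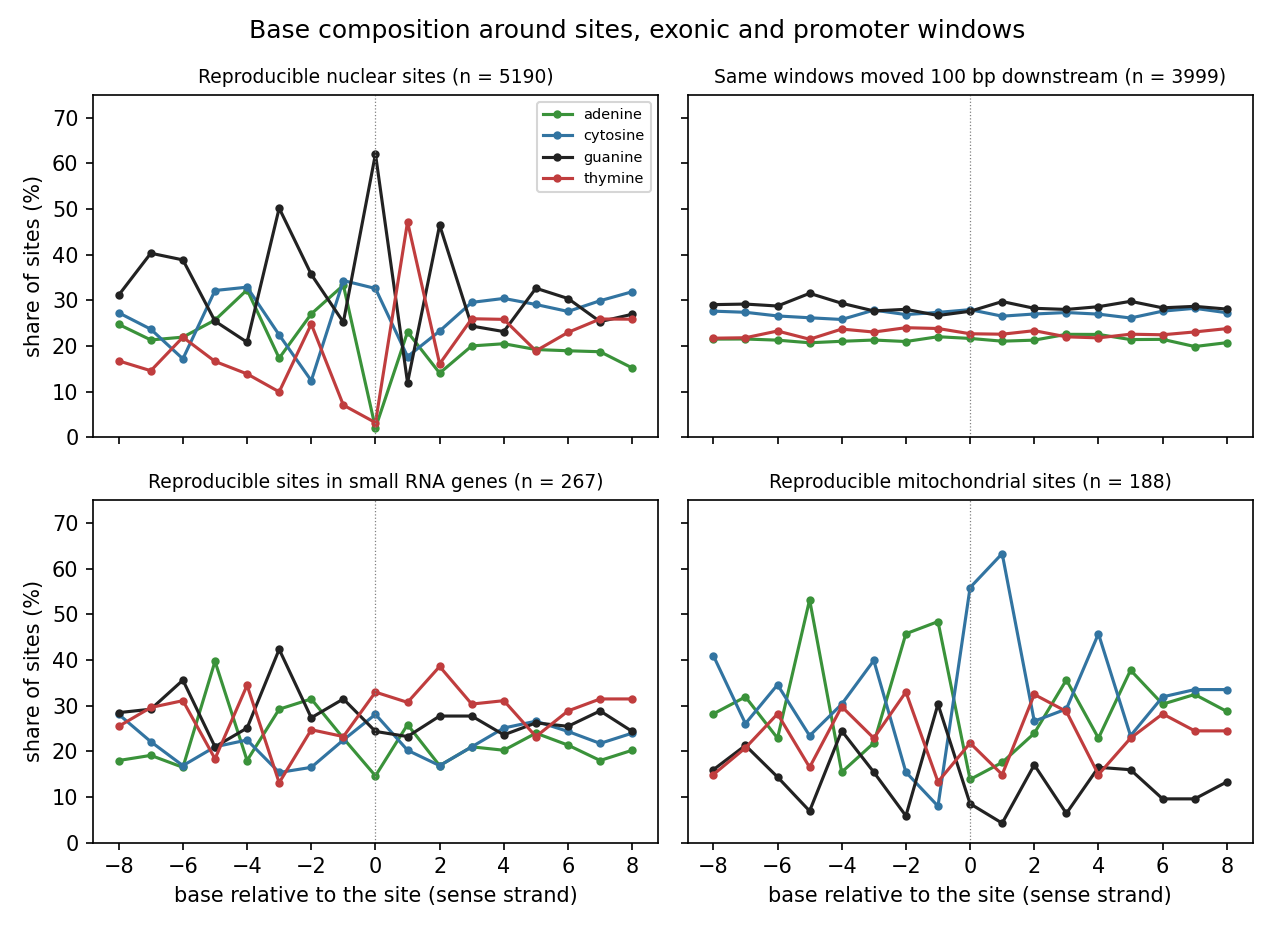
Share of sites (%) with each base from 8 bases before to 8 bases after the site on the sense strand, in 4 sets of windows; lines join positions for legibility. G reaches 62.1% at the reproducible nuclear sites, the moved windows are nearly flat, and small RNA genes and the mitochondrial genome have other profiles.

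Class by class, the profile held at starts, exons, upstream antisense sites and long non-coding bodies, where G was the site base at 66.3%, 64.8%, 62.2% and 59.8% of sites. Small RNA genes lacked it, with A, C, G and T at 14.6%, 28.1%, 24.3% and 33.0% of 267 sites. At mitochondrial sites C was the most common base, at 55.9%, and the next base was C at 63.3%.

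The replicates drew different bases into the sites they did not share. Of 15543 windows of sites listed only in replicate 1, C was the site base at 57.1% and G at 39.5%. Of 7855 windows of sites listed only in replicate 2, G was the base at 81.5% and C at 15.98%. Reproducible sites lay between the tables in this respect.

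Pausing time followed the same bases. Sites at G (n = 3222) had median times of 3.08 in replicate 1 and 7.33 in replicate 2, against 2.17 and 2.58 for sites at C (n = 1693). Sites followed by T (n = 2450) had 3.50 and 8.13, those followed by A (n = 1199) had 2.99 and 4.59, those followed by C (n = 919) had 1.55 and 2.19, and those followed by G (n = 622) had 1.18 and 1.46. Both replicates gave this order of the next base over all windows, and also at sites 0 to 60 bp after a start. In other coding exons C and G changed places in both replicates. There, sites followed by G (n = 57) had 2.67 and 4.03, and those followed by C (n = 107) had 1.64 and 2.73.

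The combination spread further. Sites at G followed by T (n = 1523) had median times of 4.17 and 10.99 and percentiles of 64.8 and 58.8. Sites at C followed by G (n = 231), the CpG dinucleotide, had times of 1.09 and 0.615 and percentiles of 35.4 and 11.3. Windows with up to 14 G or C of 30 bases (n = 1529) had percentiles of 61.9 and 47.1, and those with 24 or more (n = 410) had 40.9 and 23.5, with each step between them lower than the last in both replicates.

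Base composition and class overlapped, so start and exon sites were also set side by side at the same base. Windows with up to 14 G or C made up 6.11% of those 0 to 60 bp after a start and 61.2% of those in other coding exons. At G the start sites had percentiles of 52.1 and 42.6 and the exon sites 67.9 and 55.9. At C they had 45.7 and 29.9 against 60.6 and 29.7, and at G followed by T 62.6 and 62.4 against 70.0 and 59.5. In replicate 1 start sites were lower in all 3 of these settings, while in replicate 2 they were lower at G and level or higher in the others.

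At like G and C content the replicates also parted. With up to 14 G or C of 30 bases, start sites had percentiles of 60.7 and 57.1 and exon sites 67.5 and 54.3. With 15 to 17 they had 54.2 and 54.1 against 62.9 and 40.3, and with 18 to 20 they had 51.6 and 40.2 against 55.6 and 31.9. In replicate 1 start sites were lower in these bins, and in replicate 2 they were higher, which turns the direction of the start difference in that replicate. With 21 to 23 G or C (48 exon sites) they had 46.0 and 31.3 against 47.3 and 23.7, and with 24 or more, where the exons had 16 sites, 40.9 and 22.4 against 36.3 and 21.5. How far composition accounts for the difference between starts and exons was not tested.

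Of the reproducible sites, 8476 fell in exactly 1 gene on their strand, 437 in more than 1 and 4992 in none. They named 4405 genes, of which 3466 are protein-coding, and most held few sites, since 2937 genes had 1 and 790 had 2. The 678 genes with 3 or more sites were tested, each by its median percentile minus the median over all reproducible sites of that table, with limma over the 2 replicates. The minimum was set on the number of sites, and whether that number goes with pausing time was not tested.

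Among the 678 genes, 47, or 6.93%, passed an adjusted p of 0.05 with limma and Benjamini-Hochberg adjustment, and 180 had an unadjusted p under 0.05 (26.5%). Longer stays were called in 38 genes (5.6%) and shorter stays in 9 (1.33%). The fit gave every gene the same standard error, 10.4 points, so a gene's own spread between the tables did not set its p. The number of a gene's sites and the spread among them did not enter this error either. A call therefore describes the sites listed in both tables, and whether other sites of the gene would give it was not tested. Zero is not the centre of the tested genes, whose median was 6.17 points in replicate 1 and 7.47 in replicate 2, with 318 genes above 0 in both replicates and 150 below 0 in both. Across genes rho between the replicates was 0.446.

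These calls depended on the scale. When percentiles were ranked among the reproducible sites only, 0 genes passed (smallest limma adjusted p 0.12, and 162 genes at an unadjusted p under 0.05). The count was also 0 (smallest adjusted p 0.138, and 66 genes at an unadjusted p under 0.05) over the 6953 sites whose deposited relative uncertainty was smaller. On a log2 scale 32 genes were called, 5 longer and 27 shorter, against 38 and 9 on the percentile scale, so the split by direction turned with the scale. The gene-level calls below are therefore given with the times of the replicates, and a call rests on the mean of the 2 tables, which need not lie equally far from the median.

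**Figure D3:**
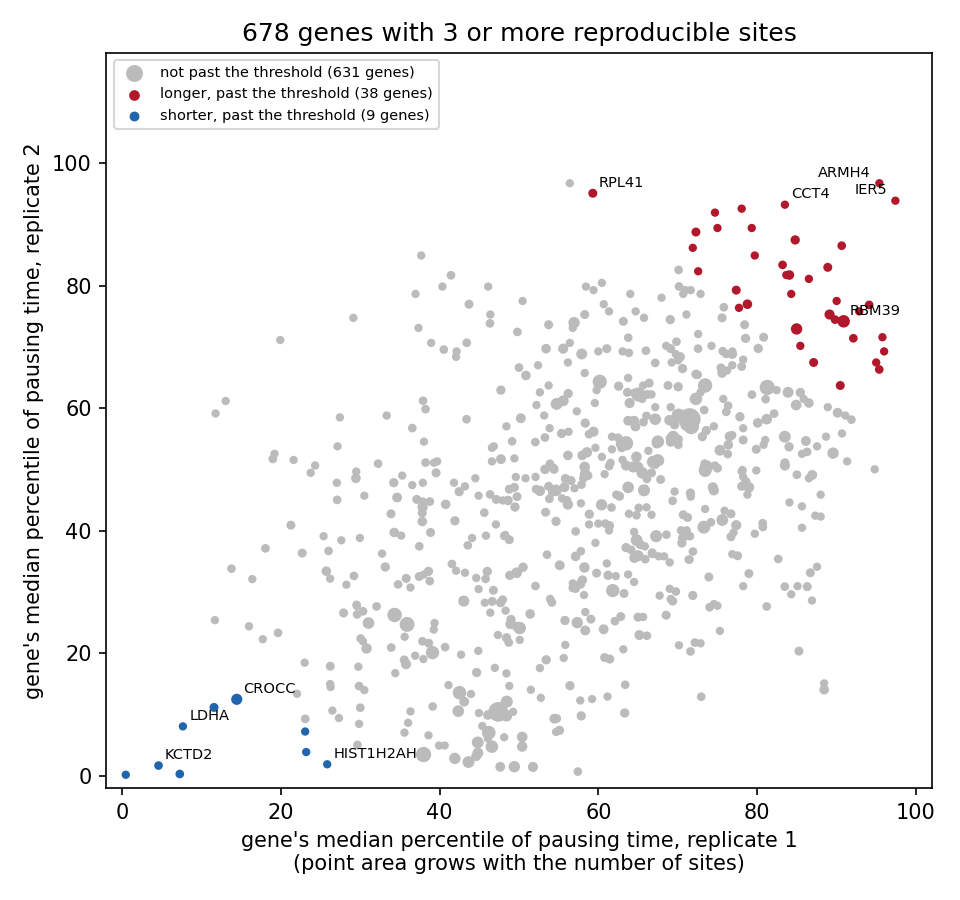
Median percentile of pausing time of each of the 678 genes with 3 or more reproducible sites in replicate 1 (horizontal) and replicate 2 (vertical); point area grows with the number of sites, and colours mark the 38 genes called longer and the 9 called shorter (limma, adjusted p under 0.05). Most of the called genes lie towards the upper right or the lower left, RPL41 is high in replicate 2 only, and the remaining genes fill a broad cloud.

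The longest stays were in IER5 and ARMH4. IER5, an immediate early response gene, held 3 sites with times of 22.7, 8.77 and 24.4 in replicate 1 and 76.9, 19.6 and 45.5 in replicate 2, at 33, 38 and 1903 bp after a start. All 3 were long in both tables, and the gene stood 49.5 ± 10.4 points (SE) above the median (limma, Benjamini-Hochberg-adjusted p = 0.000847). ARMH4 stood 49.9 points above, but its 3 sites ranged from 0.432 to 24.4 in replicate 1 and from 0.355 to 100 in replicate 2, so the gene's median hides a short intronic site.

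The next genes by size were CCT4 and ELF1. CCT4, a subunit of the cytosolic chaperonin, held 3 intronic sites with median times of 9.01 and 43.5. ELF1, an ETS-family transcription factor, held 4 sites with medians of 13.6 and 29.9. In both genes every site was longer than the median of all reproducible sites in its table.

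PTGES3, the HSP90 co-chaperone p23, held 6 sites with medians of 9.61 and 31.3. AFDN, the junction protein afadin, held 5 with 11.8 and 25.6, and CHD1, a chromatin remodeller, held 4 with 16.8 and 20.7. These 3 genes had wide ranges, PTGES3 from 0.370 to 17.2 in replicate 1. RN7SKP71, a pseudogene copy of the 7SK RNA on chromosome 12 whose reads may be shared with other copies, held 3 sites with medians of 7.14 and 41.7. PTGES3, AFDN and RN7SKP71 no longer passed the test on a log2 scale.

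The genes called shorter differed in where their sites lay. In AL132780.1, LIMD1-AS1, LDHA, ING1 and HIST1H2AH all sites were within 300 bp after a start, and in KCTD2 and CROCC none were. AL132780.1, an antisense transcript on chromosome 14, held 3 sites between 109 and 150 bp after a start with times of 0.172, 0.188 and 0.612 in replicate 1 and 0.147, 0.165 and 0.309 in replicate 2, and stood -45.9 ± 10.4 points (SE) from the median (limma, Benjamini-Hochberg-adjusted p = 0.00278). LIMD1-AS1, which shares a divergent promoter, held 4 sites with median times of 0.283 and 0.173, and 1 of them reached 17.9 in replicate 2.

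KCTD2 had short stays inside an intron instead. Its 4 sites lay 1352 to 2567 bp after a start, with times from 0.183 to 0.489 in replicate 1 and from 0.174 to 0.294 in replicate 2, and 3 of them lay close together, 2532, 2559 and 2567 bp after it. Every one was short in both tables. LDHA, the lactate dehydrogenase subunit that ends anaerobic glycolysis, held 3 sites with median times of 0.284 and 0.447, but its site 232 bp after a start had 0.265 in replicate 1 and 14.5 in replicate 2.

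H2AFX, the histone variant H2AX that is phosphorylated at DNA breaks, held 5 sites with medians of 0.338 and 0.610, and its longest site had 2.32 in replicate 1 and another 14.1 in replicate 2. ING1, a chromatin reader, held 3 with 0.593 and 0.292, reaching 5.21 and 2.94. HIST1H2AH, a replication-dependent H2A gene, held 3 sites 10, 17 and 31 bp after its start, with times of 0.690, 0.368 and 0.677 in replicate 1 and 0.233, 0.186 and 0.530 in replicate 2. The HIST1H2AH sites were all short in both tables, and the calls of ING1 and HIST1H2AH were lost when sites were matched within 5 bp.

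CROCC, annotated over a long span of chromosome 1 as the gene of the ciliary rootlet protein, held 13 sites with medians of 0.385 and 0.701. Of these, 11 lay between positions 16860222 and 16905473, with medians of 0.321 and 0.432. The same span holds other annotated genes on that strand, including the U1 small nuclear RNA gene RNU1-2, so these sites may not be transcription of CROCC itself. This call, too, was lost with matching within 5 bp.

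Genes with the most sites could be described along their length. XIST, the long non-coding RNA of X inactivation on chromosome X, held 86 sites with median times of 5.47 and 10.8, from 0.273 to 43.5 in replicate 1 and from 0.173 to 250 in replicate 2. HNRNPA2B1, an RNA-binding protein of messenger RNA processing, held 36 with 5.51 and 10.3, and HNRNPU, a nuclear matrix RNA-binding protein, held 29 with 3.94 and 9.35. ZNF711, a zinc finger gene on chromosome X, held 34 with 8.16 and 13.1. These 4 genes stood 18.7, 18.2, 12.7 and 26.1 points above the median, and none passed the adjusted threshold (limma, Benjamini-Hochberg-adjusted p = 0.233, 0.24, 0.427 and 0.0927).

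The other genes with many sites lay in the mitochondrial genome, largely over its nuclear copies, or in ribosomal DNA repeats. The pseudogene AL669831.3 on chromosome 1 held 65 sites, of which 54 lay over nuclear copies of mitochondrial genes between positions 629087 and 634819, and its median times were 1.98 and 0.566. MT-RNR2, the mitochondrial large ribosomal RNA, held 34 sites with 1.25 and 0.280. FP671120.1 and FP236383.1, long non-coding genes on chromosome 21 in a region of ribosomal DNA repeats, held 32 and 29 sites with times of 1.12 and 2.20, and 1.03 and 2.42. In the first pair replicate 2 was the shorter table, as over the mitochondrial genome, and in the second pair it was the longer.

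Gene groups were then described by counts. Over all 678 genes 46.9% were above 0 in both replicates and 22.1% below, the medians were 6.17 and 7.47 points, and 5.6% were called longer and 1.33% shorter, and each list's counts are to be read beside these. The lists were chosen with earlier results of these data known, and no list has a test of its own.

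**Figure D4:**
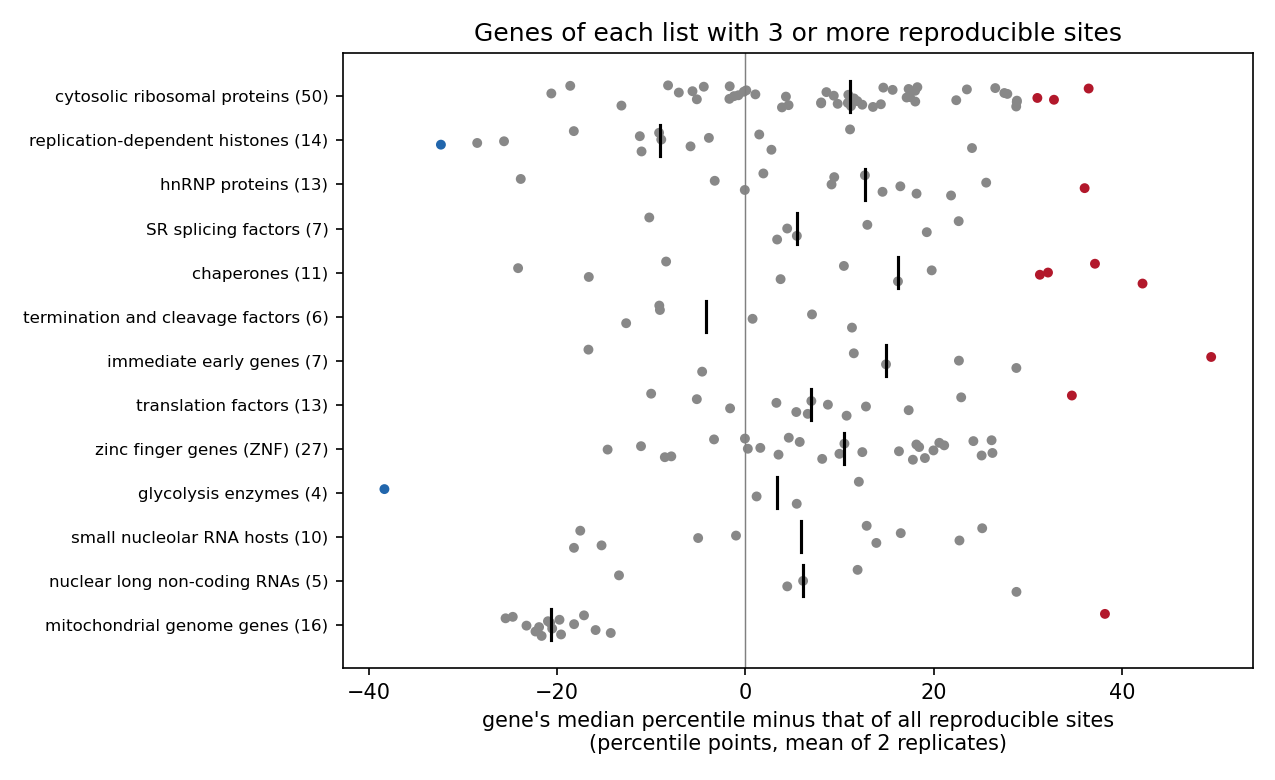
Each point is a gene with 3 or more reproducible sites, placed by its median percentile minus that of all reproducible sites (percentile points, mean of 2 replicates), in lists with at least 4 such genes (number in brackets); black bars are list medians, red points were called longer and blue points shorter (limma, adjusted p under 0.05). Histone genes and mitochondrial genes lie mostly left of 0, ribosomal protein, hnRNP and chaperone genes mostly right of it, as do zinc finger and immediate early genes. All 678 tested genes together have medians of 6.17 and 7.47 points in the replicates, so 0 is not their centre.

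Cytosolic ribosomal protein genes were widely represented. Sites lay in 68 of 86 such genes, 385 sites in all, with median times of 4.69 and 8.40. Of the 50 genes tested, 29 were above 0 in both replicates and 4 below, with medians of 12.4 and 11.01 points against 6.17 and 7.47 over all genes. Longer stays were called in 3 (RPS29, RPL37A and RPL41, named after their values were seen), a share close to the 5.6% of all genes. RPL37 held 29 sites with 5.92 and 13.0, and RPS4X held 26 with 5.17 and 10.99. RPL41 is an example of replicates apart, with 3.32 and 50.

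Replication-dependent histone genes, which are short and lack introns, lay on the other side. Sites lay in 38 of 71 genes, 88 sites with median times of 1.26 and 2.27. Of 14 genes tested, 2 were above 0 in both replicates and 8 below, with medians of -6.50 and -13.0 points, and HIST1H2AH was the gene called. HIST2H2AA3 held 6 sites with 2.20 and 2.30, and HIST1H2AG held 5 with 1.23 and 5.99. Histone sites were promoter-proximal in 85.2% of cases, against 31.4% for ribosomal protein genes, and the part of position in the difference was not tested. Many histone genes are near-identical, and reads may be split among them.

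Genes of RNA-binding and splicing proteins differed by list. For hnRNP genes, 9 of 13 were above 0 in both replicates and 1 below, with medians of 10.0 and 15.4 points. HNRNPC, named because it was the call in this list, held 9 sites with times of 11.9 and 19.2. Of 7 SR splicing factor genes, 0 were called, 3 were above and 1 below, and the list's medians were 3.48 and 11.1, the first below and the second above the 6.17 and 7.47 of all genes. SRSF3 held 14 sites with 3.06 and 18.7, and SRSF6 held 9 with 6.94 and 5.49.

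Chaperone genes held the largest count of calls among the lists. Of 11 genes tested, 4 were called longer (CCT4, HSPD1, HSP90AB1 and HSP90AA1, named after their values were seen), beside 5.6% of all genes, 7 were above 0 in both replicates and 3 below, and the medians were 17.2 and 16.5 points. HSPD1, the mitochondrial chaperonin, had times of 6.21 and 40, HSP90AB1 had 6.94 and 22.2, and HSP90AA1 had 5.71 and 25. CCT5 held the most sites, 9, with 4.02 and 11.8, and HSP90B1 held 8 with 6.74 and 9.85. DNAJC9 lay on the other side, with 0.672 and 3.77.

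Genes of the pausing machinery themselves held few sites each, as most genes did. Of 39 pause and elongation factor genes, 12 held 15 sites, none with 3 or more, so none could be tested. Of those sites 80% were promoter-proximal. Over all 4405 genes with a site, 2937 held 1 and 678 held 3 or more, so low counts were not particular to this list. HEXIM1, the inhibitor of P-TEFb, held 2 sites close to its start with median times of 33.9 and 23.9, and CTR9, a subunit of the PAF1 complex, held 2 with 1.99 and 2.68. RNA polymerase II subunit genes held 6 sites in 4 of 12 genes, all near starts. POLR2E had 4.91 and 8.08, and POLR2I had 1.69 and 0.581.

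Termination and cleavage factor genes had 6 genes tested, with 0 called and medians of 3.15 and 3.09 points. SCAF4 held 4 sites with 5.63 and 1.79, and SCAF8 held 4 with 2.46 and 11.2, so the replicates ordered these genes in opposite ways. Of 7 immediate early genes tested, IER5 was the call, and 4 were above 0 in both replicates. JUN, the AP-1 transcription factor, held 11 sites with 4.20 and 8.13, and IER2 held 6 with 10.1 and 9.40.

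The translation factor and glycolysis lists had 1 call each, beside 6.93% called over all genes. Of 13 translation factor genes 1 was called longer, EIF4G3, which was named for that and had times of 18.9 and 14.8. EEF1A1, the elongation factor that brings aminoacyl-tRNA to the ribosome, held 21 sites with 5.88 and 5.41, and EIF4A2 held 17 with 4.61 and 5.03. Of 4 glycolysis genes LDHA was the call, and ENO1 held 16 sites with 4.17 and 4.87. GAPDH held 5 with 4.85 and 2.42.

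Among 27 zinc finger genes 0 were called, 16 were above 0 in both replicates and 3 below. ZNF227 held 17 sites with 4.33 and 6.99, fewer than ZNF711. Among 10 hosts of small nucleolar RNAs 0 were called. ZFAS1 held 20 sites with 4.57 and 8.37 and GAS5 held 15 with 0.875 and 2.20, so these hosts lay at different levels in both replicates. Of 5 other nuclear long non-coding RNAs 0 were called, and MALAT1 held 15 sites with 2.75 and 6.99, beside 14 in NEAT1 with 3.48 and 6.39.

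Genes of polymerase III RNAs and of the spliceosomal small nuclear RNAs made by polymerase II held too few sites for the test. Polymerase III genes held 17 sites in 13 genes, with median times of 0.997 and 1.55, among them RN7SL3, a signal recognition particle RNA, with 1.48 in both replicates. RNY1, a Y RNA, held 2 sites with 13.0 and 72.0. Spliceosomal small nuclear RNA genes held 12 sites in 9 genes, with 1.16 and 1.57. RNU1-2 had 0.642 and 0.951, and RNU11 had 4.13 and 24.1.

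Mitochondrial genes were below 0 in both replicates in 13 of 16 cases. Their medians were -7.33 points in replicate 1 and -33.0 in replicate 2. MT-CO1, a cytochrome oxidase subunit, held 25 sites with 1.87 and 0.399. MT-TR, the arginine transfer RNA, was the exception and the list's call, with 3 sites and times of 7.52 and 34.5.

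The within-gene contrast used each gene as its own control. In 119 genes with at least 2 sites within 300 bp after a start and at least 2 further inside, the median percentile at the start minus that of the body was tested with limma. It was called in 11 genes, or 9.24%, with 21 at an unadjusted p under 0.05 (17.6%). Starts were shorter than bodies in 9 (7.56%) and longer in 2 (1.68%). The standard error was 14.1 points for every gene, whatever the number of its sites and the spread among them.

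TRA2B, a splicing regulator, had the largest difference. Its 4 start sites had median percentiles of 23.1 and 16.6, and its 4 body sites 82.1 and 85.2, a difference of -63.8 ± 14.1 points (SE; limma, Benjamini-Hochberg-adjusted p = 0.00146). NUFIP2 had 17.01 and 8.19 at the start against 76.5 and 71.6, and RPL39, a ribosomal protein, had 32.8 and 6.17 against 93.4 and 66.3. In all 3 genes both replicates placed the start sites well below the body.

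The reverse was called in 2 ribosomal protein genes. RPL23 had start percentiles of 80.9 and 67.1 against 30.8 and 12.2 in the body, a difference of 52.5 ± 14.1 (SE; limma, Benjamini-Hochberg-adjusted p = 0.00702). RPSA had 57.5 and 94.5 against 37.8 and 12.3, with differences of 19.7 and 82.3 that show how far the replicates lay apart. The count of called genes was 0 on a log2 scale, with ranks among the reproducible sites only, over the 6953 less uncertain sites, with matching within 5 bp, and with at least 5 sites a side.

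Exon and intron sites of the same gene body could be compared in 65 genes. Only SRSF3, which encodes a splicing factor, was called, 1.54% of the genes tested, with 8 at an unadjusted p under 0.05 (12.3%). Its 7 exon sites had percentiles of 48.5 and 33.0 and its 2 intron sites 92.6 and 87.5, a difference of -49.3 ± 13.6 points (SE; limma, Benjamini-Hochberg-adjusted p = 0.0353). This call rests on 2 intron sites and was lost under 7 of the 10 alternatives tried.

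ZNF217 and KPNB1 came next among genes with shorter exons, at -35.8 and -30.7 points, and MTRF1L had the largest difference in the other direction, at 30.9. None of these passed the adjusted threshold (limma, Benjamini-Hochberg-adjusted p = 0.339, 0.394 and 0.394).

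The tables hold no read counts, so how deeply a site was sequenced is unknown. The labels name no batch. Of 8 markers of HEK293 cells, 2 held reproducible sites (VIM, an intermediate filament, and NEFL, a neurofilament), and the rest held none. Of 8 markers of a blood cell line named in the series, 0 did. Sites lay in 3466 protein-coding genes in all, and counts this small cannot tell the cell types apart. Sites cannot show the level of a gene, and a gene without a reproducible site is not shown to be silent. Positions were read as counting from 1, since the base profiles of the strands coincide under that reading.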

How the data were processed

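Run-on libraries of HEK293 cells (0.5, 2, 8 and 32 min, no sarkosyl, 2 replicates) were fitted by the authors into 1 deposited table per replicate. Per the submitters' processing notes, cutadapt 1.14, HISAT2 2.1.0, SAMtools and bedtools were used with build hg38. How sites were called and the rate model are not given in the sources used here. Per the file headers, a row holds the mean, SD, Monte Carlo error, quartiles and median of a rate, and a pausing time, all taken as scores with no stated unit. The pausing time equals 1 over the deposited median throughout. The deposited rates are rounded, so long times take few distinct values. The tables give no depth, so no counting interval could be set.

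Sites were joined on chromosome, strand and position and annotated with GENCODE release 29 (GRCh38, same strand). Classes are exclusive, in the order mitochondrial, other contigs, small RNA gene, promoter-proximal (up to 60, 100 and 300 bp after a start of a coding or long non-coding gene), coding body, long non-coding body, upstream antisense (1000 bp), termination zone (10000 bp), antisense in a coding gene and intergenic. Pausing times were ranked within each table. Gene values were tested with limma 3.58.1 in R 4.3.3 (lmFit intercept over 2 replicates, eBayes, two-sided, Benjamini-Hochberg over all genes tested, threshold 0.05). Other steps used Python 3.11.15, numpy 2.4.6, pandas 2.3.3 and matplotlib 3.10.9. Class differences have no test.

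The limma steps were tested on simulated data, with unchanged genes drawn around 0 and the same spread for every gene. The tested genes are not centred on 0, so the simulation cannot show how many calls in these data are false. Of 135 changed genes among 678, 0, 71 and 130 were recovered at shifts of 15, 30 and 45 points, with 0, 3 and 3 false calls. For starts against bodies (119 genes, 23 changed) 0, 0 and 17 were recovered, and for exons against introns (65 genes, 13 changed) 0, 3 and 8.

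Genes named are the 8 called with the largest mean above and below, the 8 with most sites, the 2 with most sites in each list, the 3 called genes of each direction within genes (or those with the smallest unadjusted p), and the 3 longest and 3 shortest sites at starts and in coding bodies. Some members of the lists are not reported here. The sites, lists and rules were chosen with earlier results of these data known. Alternatives covered the ranking, a log2 scale, the set of sites, the annotation, the matching, the minimum number of sites, the limma prior and each replicate left out. The weighting by number of sites and the removal of nuclear copies of mitochondrial genes were added after seeing the data.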

Additional observations from a re-analysis of the deposited data

How the results depend on the processing

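Class differences below are in percentile points against coding gene bodies unless another class is named. On the log2 scale they were judged by sign, and each kept its sign in both replicates. Ranking among the reproducible sites only gave -11.7 at 0 to 60 bp, -10.5 for long non-coding bodies, -31.7 for small RNA genes, -10.9 for upstream antisense sites and -23.3 for other contigs. The 6953 sites with the smaller relative uncertainty gave means of -20.1, -21.2 and -10.9 for the 3 distance classes from the start outwards, -12.0 for long non-coding bodies and -19.1 for upstream antisense, but these grew in replicate 1 only (-31.4, -33.2, -17.7, -19.5 and -30.0) and shrank in replicate 2 (-8.73, -9.17, -4.16, -4.49 and -8.15), with SDs from 9.59 to 17.02. The same sites gave -47.2 for small RNA genes, -19.15 for antisense in coding genes, -43.7 for intergenic sites, -46.5 for the mitochondrial minus strand, -41.6 for other contigs, 8.23 for other exons minus introns and -17.4 for splice sites minus other exons. The termination zone turned to 2.67 there. One site per run gave -13.6 at 61 to 100 bp, -9.71 for long non-coding bodies, -11.0 for upstream antisense and -21.1 for other contigs. GENCODE basic transcripts gave -11.0, -11.0 and -9.16 for the 3 distance classes, -9.22 for long non-coding bodies and -21.3 for other contigs. Matching within 5 bp gave -10.7 at 0 to 60 bp, -9.41 for long non-coding bodies, -11.3 for upstream antisense and -20.6 for other contigs. Leaving out replicate 1 turned other exons minus introns to -1.98 (4.40 without replicate 2), and leaving out replicate 2 turned the termination zone to 2.02 (-3.29 without replicate 1). The cause was not tested.

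Genes called against the table (47) numbered 0 with ranks among reproducible sites only, 0 over the less uncertain sites, 27 with 1 site per run, 12 with 5 sites per gene, 79 with a trend and robust prior and 95 weighted by number of sites. Starts against bodies (11) gave 0 with ranks among reproducible sites only, on the log2 scale, over the less uncertain sites, with matching within 5 bp and with 5 sites a side, and 7 with basic transcripts. Exons against introns (1) gave 0 under those 5 settings and under the trend and robust prior and the weighting, and 2 with basic transcripts. The smallest limma adjusted p under settings with 0 calls ran from 0.0506 to 0.938. Matching within 5 bp raised the reproducible share to 24.9% and 39.4%. Leaving out a replicate leaves the gene tests no residual degree of freedom, so no test was run. No paired analysis was possible because 1 group is described and its replicates have no partner group. Read depth is unknown, so sites of few reads could not be set aside.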
